A study of Mus musculus with 6 samples.

Results

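Acod1 and 8 enzymes of the tricarboxylic acid (TCA) cycle were followed in the RNA-Seq of bone marrow-derived macrophages (BMDM). The 9 genes were chosen by name, as *Acod1*, *Cs*, *Idh1*, *Idh2*, *Idh3a*, *Ogdh*, *Suclg1*, *Fh1* and *Mdh2*, out of 55453 gene symbols in the table of counts, and all 9 were among the 13680 genes with enough counts to be tested. The study compared 3 PP2Ac KO libraries with 3 PP2Ac WT libraries of C57BL/6 mice. PP2Ac KO BMDM came from LysM-cre PP2Ac fl/fl mice, in which exon 1 of *Ppp2ca*, the gene of a catalytic subunit of the phosphatase PP2A, is floxed and *cre* is driven by the Lysozyme 2 promoter, so that deletion takes place in the myeloid lineage. PP2Ac WT BMDM came from wild-type mice of The Jackson Laboratory, while the LysM-cre PP2Ac fl/fl mice came from a university laboratory, so that genotype and source of the mice cannot be told apart, and no control that carried *cre* alone or the floxed allele alone was analysed here. The mice were of both sexes and between 6 and 10 weeks old. The labels give the genotype and a replicate number and no treatment, and both groups were taken as treated with the STING agonist cGAMP at 10 μg/mL for 4 hours, as the study describes for its RNA-Seq, so that no untreated level of any gene was measured. The study describes its cell-based experiments as done in biological triplicate, but the sources used here do not tie the libraries to separate animals, so p-values measure the spread between these libraries.

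The TCA cycle oxidizes acetyl groups in mitochondria. Citrate synthase (*Cs*) joins acetyl-CoA to oxaloacetate, aconitase turns citrate into isocitrate by way of cis-aconitate, and isocitrate dehydrogenase, the α-ketoglutarate dehydrogenase complex, succinyl-CoA ligase, succinate dehydrogenase, fumarase and malate dehydrogenase complete the turn. Macrophages that are activated by pathogen products or interferon induce *Acod1* (also called *Irg1*), whose enzyme takes cis-aconitate out of the cycle and decarboxylates it to itaconate, an antimicrobial and immunoregulatory metabolite that inhibits succinate dehydrogenase. *Idh1* stands apart from the other enzymes chosen, because its product works in the cytosol and peroxisomes, where it makes NADPH and α-ketoglutarate from isocitrate. The libraries measure mRNA only, and neither enzyme activity nor metabolites.

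Library totals ran from 35257156 to 47390899 counts, and 3 counts, taken as the smallest signal to be told from 0, equal 0.0604 to 0.0909 CPM (counts scaled to a common library size). *Ppp2ca* had 47, 33 and 38 counts in PP2Ac KO and 10654, 8913 and 8279 in PP2Ac WT, which fits the labels. The macrophage markers were abundant in all 6 libraries, with summed levels of 7434 to 7630 CPM in PP2Ac KO against 6360 to 6971 CPM in PP2Ac WT, and 2 of the 7 were higher in PP2Ac KO. Marker genes are counted as higher or lower at FDR under 0.05, where 18.1% of all genes tested were higher in PP2Ac KO and 19.0% lower. Neutrophil markers summed to at most 0.990 CPM, with *Ly6g* and *Retnlg* at 0 in every library, and lymphocyte markers to at most 1.03 CPM, with *Cd8a* at 0. Dendritic cell markers summed to 1.49 to 2.66 CPM in PP2Ac KO against 0.954 to 1.71 CPM in PP2Ac WT, and 1 of the 3 tested was higher. The 4 fibroblast markers were all lower in PP2Ac KO, with sums of 22.7 to 33.4 CPM against 74.9 to 117.7 CPM. Of 7 proliferation genes, 6 were lower, with sums of 277 to 290.2 CPM against 336.8 to 405.8 CPM. The part of these differences in the results that follow was not tested, and in bulk libraries fewer cells of a type and less RNA per cell cannot be told apart.

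The genes lie apart in the genome. In build GRCm38 (annotation GENCODE M21), *Acod1* is on chr14:103046977-103056573 on the forward strand, with 5 exons and a single transcript of 2623 bases. *Idh1* is on chr1:65158616-65186500 on the reverse strand with 7 coding transcripts, and *Fh1* lies on the same chromosome at chr1:175600374-175625635, also on the reverse strand. *Cs* is at chr10:128337734-128362479, *Idh3a* at chr9:54586334-54604661, *Ogdh* at chr11:6291633-6356642, *Suclg1* at chr6:73248382-73276911 and *Mdh2* at chr5:135778480-135790398, all on the forward strand, and *Idh2* is at chr7:80094846-80115392 on the reverse strand. No exon of the 9 genes overlaps an exon of another gene. Of the 50-base windows in their transcripts, 2.01% in *Cs* and 0.236% in *Suclg1* also occur in another gene's transcripts, and 0 in each of the other 7 genes. The other gene for *Cs* is its close copy *Csl*, which had 0 to 3 counts per library.

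The promoters show how *Acod1* differs in sequence from the enzymes of the cycle. Printed are the RefSeq windows of GRCm38.p6 from 250 bases before to 50 bases after a transcription start, for *Acod1*, for both listed starts of *Idh1*, the 2 members whose mRNA changed, and for *Cs*, the entry enzyme, whose mRNA did not pass the test. Each is written 5′ to 3′ on the gene's strand, and capitals mark matches on either strand to the motifs searched. Acod1 is at chr14:103046762-103047061 (forward), Idh1 at chr1:65186430-65186729 and chr1:65179093-65179392 (reverse) and Cs at chr10:128337477-128337776 (forward).
Acod1: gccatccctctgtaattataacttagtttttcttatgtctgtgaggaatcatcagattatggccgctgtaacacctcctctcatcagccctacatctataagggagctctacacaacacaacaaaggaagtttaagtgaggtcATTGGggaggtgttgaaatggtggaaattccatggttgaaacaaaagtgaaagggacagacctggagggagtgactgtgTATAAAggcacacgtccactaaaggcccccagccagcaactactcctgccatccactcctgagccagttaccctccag
Idh1, start 1: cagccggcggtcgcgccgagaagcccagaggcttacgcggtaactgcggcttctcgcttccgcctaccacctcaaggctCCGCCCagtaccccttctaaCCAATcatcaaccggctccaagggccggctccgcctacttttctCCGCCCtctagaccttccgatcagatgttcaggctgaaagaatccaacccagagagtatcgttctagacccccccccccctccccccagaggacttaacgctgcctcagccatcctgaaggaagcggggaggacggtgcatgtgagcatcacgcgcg
Idh1, start 2: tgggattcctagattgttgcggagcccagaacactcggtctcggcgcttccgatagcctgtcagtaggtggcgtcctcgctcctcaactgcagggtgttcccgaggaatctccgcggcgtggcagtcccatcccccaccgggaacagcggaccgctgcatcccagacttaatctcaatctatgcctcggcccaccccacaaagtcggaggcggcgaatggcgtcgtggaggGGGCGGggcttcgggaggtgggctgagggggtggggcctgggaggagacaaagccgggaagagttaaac
Cs: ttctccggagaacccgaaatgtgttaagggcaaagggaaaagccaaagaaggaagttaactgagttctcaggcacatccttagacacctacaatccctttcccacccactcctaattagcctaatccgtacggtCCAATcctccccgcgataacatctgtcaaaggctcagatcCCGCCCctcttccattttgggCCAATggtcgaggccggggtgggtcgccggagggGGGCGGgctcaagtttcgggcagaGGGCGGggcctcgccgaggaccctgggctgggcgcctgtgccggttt

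The *Acod1* window held 2 CpG dinucleotides and was 47% G and C. The windows of the 7 other members with an entry (that is, without *Idh3a*) held 11 to 37 CpG, with 23 in each *Idh1* window and 18 in that of *Cs*, while the median of all 32851 windows was 7. Of all windows, 23.3% held 2 CpG or fewer, so a count as low as that of *Acod1* was not rare. In *Acod1* the capitals are TATAAA, the TATA box, whose first base lies at position -28 from the RefSeq start, and CCAAT on the opposite strand at -107. The GENCODE gene starts earlier, at chr14:103046977, so that TATAAA lies just inside it. TATAAA, a motif added after the sequences were seen, was found in 13.6% of all windows and in *Acod1* alone among the members. The GC box GGGCGG (35.7% of all windows) was found in 6 members, *Cs*, *Fh1*, *Idh1*, *Idh2*, *Mdh2* and *Ogdh*, and CCAAT (37.4%) in *Acod1*, *Cs*, *Fh1*, *Idh1*, *Idh2* and *Ogdh*. The core of the interferon-stimulated response element, searched as GAAANNGAA (8.56%), was found in *Suclg1* only, the kappaB motif (5.80%) in *Idh2* and *Ogdh*, and the NRF1 motif GCGCATGCG (1.75%) in *Ogdh*. The shares are per window, while a member is named if any of its windows held a match. *Ogdh* has 6 windows, with kappaB in window 4 only and NRF1 in windows 5 and 6 only. No matches overlapped in the windows of the members. Only exact matches to each pattern were searched, so a window without one, such as that of *Acod1* for the interferon and kappaB motifs, may hold variants of these elements. A match describes letters and is no evidence of binding.

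*Acod1* mRNA was 4.89 times as abundant in PP2Ac KO BMDM as in PP2Ac WT BMDM. It was counted 48122, 28875 and 38110 times in the PP2Ac KO libraries and 12755, 6647 and 7881 times in the PP2Ac WT libraries. Scaled by library size with TMM factors, the levels were 1134, 874.7 and 913.3 CPM in PP2Ac KO against 256.8, 152.8 and 188 CPM in PP2Ac WT. Every PP2Ac KO library lay above every PP2Ac WT library, and the library numbered 1 was the highest of its genotype in both. The means were 974 ± 140 CPM and 199 ± 52.9 CPM (SD, n = 3). On the log2 scale *Acod1* was up by 2.29 with a standard error of 0.18 and a 95% interval of 1.88 to 2.701 (edgeR, adjusted p = 6.16e-05). Unless another setting is named, adjusted p-values are those of the quasi-likelihood F test, corrected by Benjamini-Hochberg over all 13680 genes. In size it was exceeded by 0.49% of the genes tested, and it was the 38th highest. Leaving out any single library gave log2 fold changes from 2.13 to 2.52.

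*Idh1* mRNA moved the other way and fell to 53.2% of its PP2Ac WT mean. Its levels were 64.07, 68.73 and 84.28 CPM in PP2Ac KO against 133.4, 131.9 and 142.9 CPM in PP2Ac WT. The groups did not overlap, and the third PP2Ac KO library was the highest of its group. The means were 72.4 ± 10.6 and 136 ± 5.99 CPM (SD, n = 3). Its log2 fold change, -0.91 with a standard error of 0.10, had a 95% interval of -1.13 to -0.69 (edgeR, adjusted p = 2.01e-04), and 10% of the genes tested had a larger one in size. Without single libraries it ranged from -1.03 to -0.84.

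**Figure D1:**
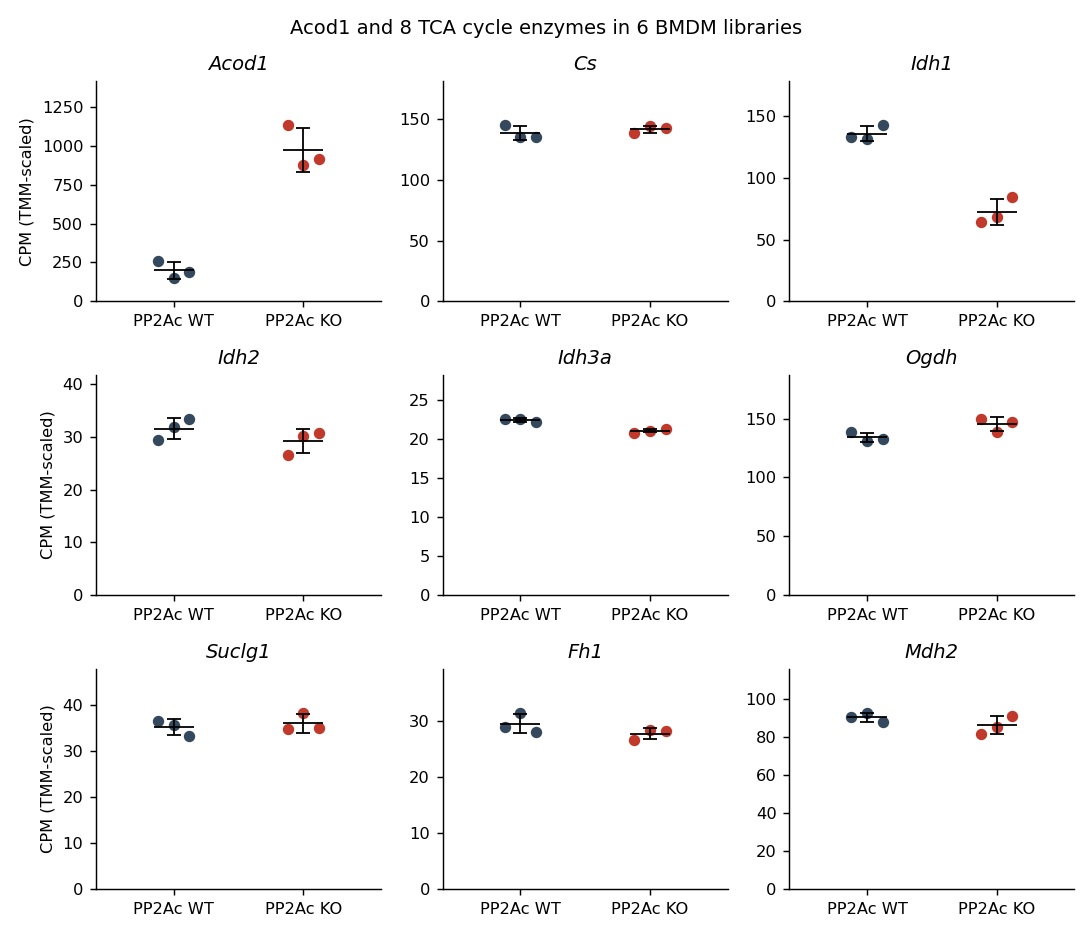
Level of each of the 9 genes in TMM-scaled CPM (linear axes from 0) in the 3 PP2Ac WT and 3 PP2Ac KO libraries. Points are libraries in the order of their replicate numbers, and the bar with whiskers is the mean ± SD; *Acod1* sits at 874.7 to 1134 CPM in PP2Ac KO against 152.8 to 256.8 CPM in PP2Ac WT, *Idh1* at 64.07 to 84.28 against 131.9 to 142.9 CPM, and the points of the other genes lie close together.

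The 7 enzymes that remain act in the cycle in mitochondria, and none of them passed the test. Their log2 fold changes lay between -0.11 and 0.11, their 95% intervals together spanned -0.29 to 0.25, and their adjusted p-values from edgeR ran from 0.182 to 0.744. *Cs*, which makes citrate, had 138.2, 143.8 and 142.3 CPM in PP2Ac KO against 144.9, 134.9 and 135.2 CPM in PP2Ac WT (log2 fold change 0.03). The groups overlapped.

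Of the isocitrate dehydrogenases of mitochondria, *Idh2*, the NADP-dependent form, had 26.57, 30.14 and 30.82 CPM in PP2Ac KO against 29.39, 31.94 and 33.42 CPM in PP2Ac WT (log2 fold change -0.11), with overlap. *Idh3a*, the catalytic subunit of the NAD-dependent form, had 20.88, 21.11 and 21.28 CPM in PP2Ac KO against 22.63, 22.6 and 22.26 CPM in PP2Ac WT. These groups did not overlap, and each library of PP2Ac KO was lower, but the log2 fold change of -0.09 (standard error 0.06) missed the threshold (adjusted p = 0.245 from edgeR). *Ogdh*, which encodes the E1 subunit of the α-ketoglutarate dehydrogenase complex, had 149.7, 138.3 and 147.4 CPM in PP2Ac KO against 138.6, 131.2 and 132.4 CPM in PP2Ac WT. The lowest PP2Ac KO library lay just under the highest PP2Ac WT library. The log2 fold change of *Ogdh* was 0.11 (adjusted p = 0.182), and the same size once replicate number entered the fit as a block, where it passed the test (adjusted p = 0.0380 from edgeR).

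Further round the cycle, *Suclg1*, the shared α subunit of succinyl-CoA ligase, had 34.7, 38.29 and 34.96 CPM in PP2Ac KO against 36.58, 35.62 and 33.32 CPM in PP2Ac WT (log2 fold change 0.03). *Fh1*, fumarase, had 26.61, 28.44 and 28.35 CPM in PP2Ac KO against 29.03, 31.55 and 28.17 CPM in PP2Ac WT (log2 fold change -0.09). *Mdh2*, the mitochondrial malate dehydrogenase, had 81.65, 85.3 and 91.04 CPM in PP2Ac KO against 90.16, 92.64 and 87.88 CPM in PP2Ac WT (log2 fold change -0.07). In each of these 3 genes the libraries of the genotypes overlapped.

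Of the 9 genes, 1 was thus higher in PP2Ac KO at FDR under 0.05, where 18.1% of all genes tested were higher, and 1 was lower, where 19.0% of all genes were lower. At the study's thresholds, a log2 fold change over 1 in size and FDR under 0.01, *Acod1* was higher (3.36% of all genes) and 0 genes were lower (2.99% of all genes). With the replicate block, 2 were higher, *Acod1* and *Ogdh*, and 1 was lower, against 24.4% and 26.4% of all genes. PP2Ac KO libraries lay all above PP2Ac WT libraries in *Acod1*, as in 24.0% of all genes, and all below in *Idh1* and *Idh3a*, as in 26.8% of all genes. The median log2 fold change of the 9 genes was -0.07 and that of all genes tested -0.02. These small differences depend on scaling. The TMM factors were 0.910 to 0.938 in PP2Ac KO and 1.05 to 1.10 in PP2Ac WT, and without them, with library totals only, the median of all genes shifted to -0.24. In that setting 7 of the 9 genes were lower in PP2Ac KO, among them *Idh1*, and the log2 fold changes of *Cs*, *Ogdh* and *Suclg1* turned negative, while *Acod1* stayed higher (2.08) and *Idh1* was lower by more (-1.13). Of all genes called, 51.3% were lower with TMM factors, 47.8% with RLE factors, 46.8% in DESeq2, 61.6% with upper-quartile factors and 80.3% with library totals only.

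The rest of the cycle was followed in 12 other genes, among them *Aco1* and *Mdh1*, which encode cytosolic forms of its enzymes. *Aco1*, the cytosolic aconitase, which also acts as an iron regulatory protein, fell in PP2Ac KO BMDM. It was the 1 gene of the 12 that passed the test, with 0 higher, while 19.0% of all genes tested were lower and 18.1% higher. Its levels were 42.71, 44.14 and 46.51 CPM in PP2Ac KO against 57.09, 59.74 and 63.62 CPM in PP2Ac WT, without overlap. *Aco1* had a log2 fold change of -0.44 with a standard error of 0.06 (edgeR, adjusted p = 8.45e-04), and the gene lies at chr4:40143081-40198338 on the forward strand.

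The other genes of the list showed small differences, within the range of the 7 enzymes above that did not pass the test. For the other subunits of the NAD-dependent isocitrate dehydrogenase, *Idh3b* and *Idh3g*, the log2 fold change was -0.07 each. For *Dlst* and *Dld*, the E2 and E3 subunits of the α-ketoglutarate dehydrogenase complex, it was -0.05 and 0.03. The β subunits of succinyl-CoA ligase, *Suclg2* and *Sucla2*, had 0.08 and -0.11. The 4 subunits of succinate dehydrogenase, the target of itaconate, had 0.02 for *Sdha*, 0.05 for *Sdhb*, 0.09 for *Sdhc* and 0.06 for *Sdhd*, and the cytosolic malate dehydrogenase *Mdh1* had -0.07. Over these 11 genes, the 95% intervals together spanned -0.27 to 0.25 and the adjusted p-values from edgeR ran from 0.230 to 0.802. Besides *Aco1*, the groups did not overlap in *Dlst* and *Sucla2*, where PP2Ac KO was below, and in *Sdhc*, where it was above. Among all genes tested, PP2Ac KO libraries lay all below in 26.8% and all above in 24.0%. Reads of *Idh3b* and *Mdh1* are uncertain to the extent that the counting ignored strand, since their exons overlap those of *Nop56* and *Wdpcp* on the opposite strand.

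**Figure D2:**
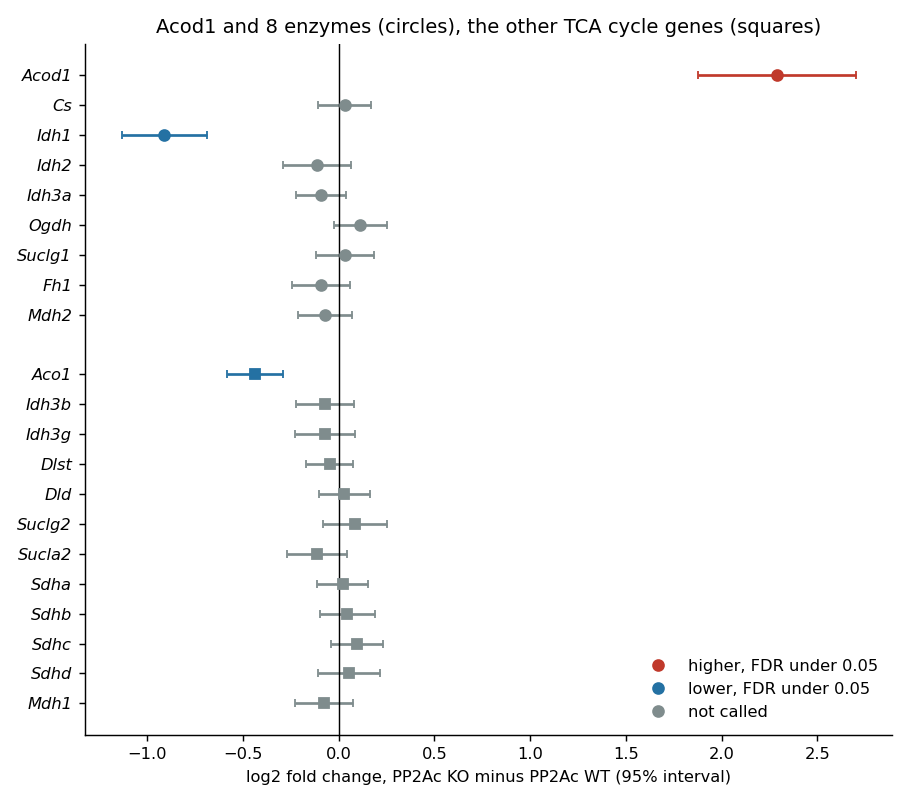
The log2 fold change (PP2Ac KO minus PP2Ac WT) of *Acod1* and the 8 enzymes (circles) and of 12 other TCA cycle genes (squares), with 95% intervals of the edgeR fit and colour for genes at FDR under 0.05. *Acod1* lies at 2.29, *Idh1* at -0.91 and *Aco1* at -0.44, and the intervals of the 18 other genes include 0 with TMM scaling. With library totals only, 7 of the 9 and 8 of the 12 are called lower, as are 6125 of all 13680 genes.

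The mRNA of the cycle can be set against *Acod1*. Summed over these 20 genes, cytosolic forms included, the level was 1435, 1500 and 1535 CPM in PP2Ac KO. It was 1565, 1566 and 1566 CPM in PP2Ac WT, all PP2Ac KO libraries being lower. Without *Idh1* and *Aco1*, the other 18 genes summed to 1329, 1387 and 1405 CPM in PP2Ac KO against 1375, 1374 and 1359 CPM in PP2Ac WT, and the groups overlapped. *Acod1* alone amounted to 0.790, 0.583 and 0.595 of the sum of 20 in PP2Ac KO and to 0.164, 0.0976 and 0.1201 of it in PP2Ac WT. These sums weigh transcripts by length as well as number.

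Per kilobase of exon, *Acod1* was the most abundant of the 9 genes in both genotypes. Its level was 371 ± 53.4 RPKM in PP2Ac KO and 75.9 ± 20.2 RPKM in PP2Ac WT (SD, n = 3). In PP2Ac WT it was followed by *Idh1* (49.1 ± 2.16), *Mdh2* (25.3 ± 0.669), *Ogdh* (24.6 ± 0.732), *Cs* (23.9 ± 0.985), *Idh2* (12.2 ± 0.788), *Fh1* (8.72 ± 0.517), *Suclg1* (7.62 ± 0.362) and *Idh3a* (4.44 ± 0.0408), all in RPKM. The libraries of *Mdh2* and *Ogdh* overlapped, as did those of *Ogdh* and *Cs*, and all other neighbours in this order were apart. In PP2Ac KO the order after *Acod1* was *Ogdh* (26.6 ± 1.10), *Idh1* (26.1 ± 3.82), *Cs* (24.5 ± 0.5005), *Mdh2* (24.1 ± 1.33), *Idh2* (11.3 ± 0.883), *Fh1* (8.196 ± 0.304), *Suclg1* (7.79 ± 0.433) and *Idh3a* (4.16 ± 0.0391) in RPKM. There the *Idh1* libraries, at 23.12, 24.8 and 30.42 RPKM, overlapped those of *Ogdh*, *Cs* and *Mdh2*, the third lying above them all. The libraries of *Mdh2* also overlapped those of *Cs* and of *Ogdh*, and *Fh1* and *Suclg1* overlapped. Lengths are of all annotated exons joined. The order depends on this choice. With the longest coding transcript as the length, *Acod1* stayed first and *Idh3a* last in both genotypes, and *Mdh2* moved to position 2 in both. *Suclg1* moved from position 8 to 6 in both, above *Idh2* and *Fh1*, and *Idh1* was at position 3 in PP2Ac WT and 5 in PP2Ac KO.

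**Figure D3:**
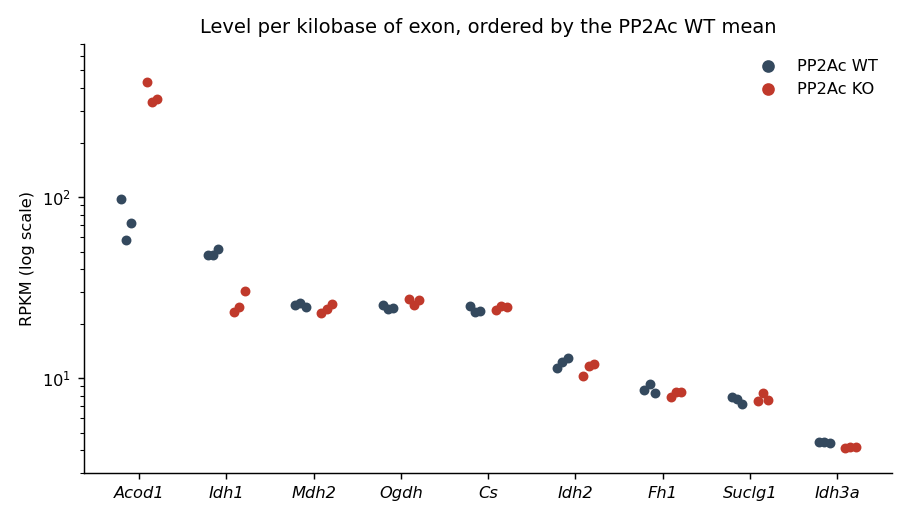
Level of the 9 genes per kilobase of exon (RPKM, log axis) in each PP2Ac WT and PP2Ac KO library, ordered by the PP2Ac WT mean. *Acod1* is highest in both genotypes, and *Idh1* drops from 47.61 to 51.58 RPKM in PP2Ac WT to 23.12 to 30.42 RPKM in PP2Ac KO, where it overlaps *Ogdh*, *Cs* and *Mdh2*.

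Ratios of a pair of enzymes within a library do not depend on its scaling. The log2 ratio of *Idh1* to *Idh2*, the cytosolic and mitochondrial NADP enzymes, was 1.27, 1.19 and 1.45 in PP2Ac KO and 2.18, 2.05 and 2.10 in PP2Ac WT, without overlap. The difference of -0.80 corresponds to a geometric mean of 2.47 *Idh1* counts per *Idh2* count in PP2Ac KO and 4.31 in PP2Ac WT. The exact two-sided permutation test gave p = 0.1, the smallest that 3 libraries against 3 allow (0.2 adjusted over 2 ratios). The log2 ratio of *Mdh1* to *Mdh2*, the cytosolic and mitochondrial malate dehydrogenases, was 0.298 ± 0.0320 in PP2Ac KO and 0.305 ± 0.0230 in PP2Ac WT (SD, n = 3, exact permutation p = 0.9). Its difference of -0.006 was smaller than either SD.

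**Figure D4:**
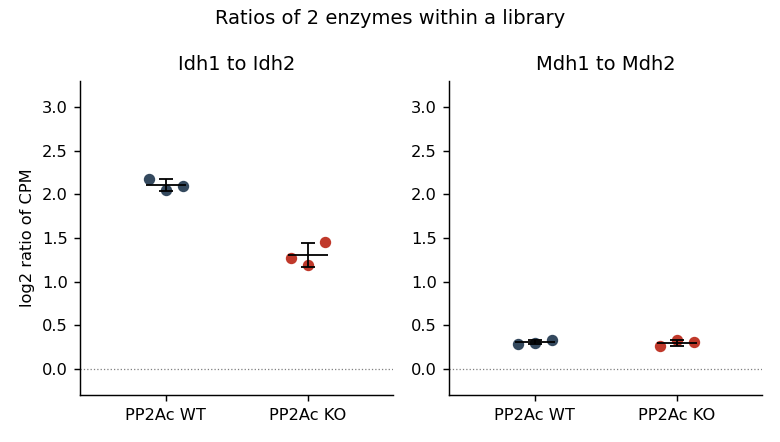
Log2 ratio of the CPM of 2 enzymes within each library, with mean ± SD, for 2 pairs on the same axis. The PP2Ac KO libraries lie below PP2Ac WT for *Idh1* to *Idh2* (1.19 to 1.45 against 2.05 to 2.18). For *Mdh1* to *Mdh2* the groups overlap, with PP2Ac KO library 1, at 0.2635, below every PP2Ac WT library.

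Pyruvate enters the cycle through its mitochondrial carrier, the pyruvate dehydrogenase complex and pyruvate carboxylase, and kinases and phosphatases switch the complex off and on. Of 13 genes listed for this step, 12 were tested, of which 1 was higher and 3 lower (median log2 fold change -0.004). Among all genes tested, 18.1% were higher and 19.0% lower. *Pdk3*, a kinase that inactivates the complex, rose, with 46.11, 44.44 and 38.39 CPM in PP2Ac KO against 28.18, 20.83 and 17.27 CPM in PP2Ac WT. The groups did not overlap, and the log2 fold change was 0.96 (adjusted p = 0.00138 from edgeR). *Pdk2*, another of these kinases, fell, with a log2 fold change of -0.53 (adjusted p = 0.00452), and *Pdp1*, a phosphatase that activates the complex, fell by 0.35 on the log2 scale (adjusted p = 0.00850). *Pdha1*, the E1 α subunit, had 55.37, 56.22 and 58.28 CPM in PP2Ac KO against 63.13, 65.21 and 64.79 CPM in PP2Ac WT (log2 fold change -0.18, adjusted p = 0.0250 from edgeR). The *Pdha1* call was lost when PP2Ac KO library 1 or 2 or PP2Ac WT library 2 or 3 was left out (adjusted p from 0.0670 to 0.0912). With the replicate block, 3 of the 12 genes were higher and 3 lower, against 24.4% and 26.4% of all genes. *Pdk4* had at most 6 counts per library and was not tested.

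The exchange of intermediates with amino acids and the cytosol was covered by 12 genes, all tested. Of these, 0 were higher and 3 lower in PP2Ac KO (median log2 fold change -0.06), against 18.1% and 19.0% of all genes. *Gpt2*, the mitochondrial alanine transaminase, which yields α-ketoglutarate, had 29.79, 28.75 and 28.59 CPM in PP2Ac KO against 38.17, 36.84 and 36.5 CPM in PP2Ac WT (log2 fold change -0.36, adjusted p = 0.00130 from edgeR). *Me2*, mitochondrial malic enzyme, had a log2 fold change of -0.23 (adjusted p = 0.0196), and *Glud1*, glutamate dehydrogenase, one of -0.18 (adjusted p = 0.0463 from edgeR). The count of 3 dropped to 1, *Gpt2*, without PP2Ac KO library 1, PP2Ac KO library 2 or PP2Ac WT library 2, each of which ended the *Me2* call (adjusted p from 0.0541 to 0.0768). The *Glud1* call was lost without any single library (0.0506 to 0.142), with RLE factors (0.0653) and with no filter on low counts (0.0907). With the replicate block, 1 gene was higher and 5 were lower, against 24.4% and 26.4% of all genes.

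Genes for the transport, sensing, breakdown and use of itaconate formed a list of 8, of which 6 were tested. Of these, 2 were higher in PP2Ac KO and 0 lower, against 18.1% and 19.0% of all genes, with a median log2 fold change of 0.36. *Rab32*, a GTPase that takes part in the delivery of itaconate to vacuoles that hold bacteria, rose from 121.5, 109.9 and 123.5 CPM in PP2Ac WT to 161.1, 150.0 and 161.4 CPM in PP2Ac KO. The groups did not overlap (log2 fold change 0.41, adjusted p = 0.00160 from edgeR). *Abcg2*, an efflux transporter, had 7.05, 6.42 and 7.19 CPM in PP2Ac KO against 6.10, 5.50 and 4.77 CPM in PP2Ac WT (log2 fold change 0.34, adjusted p = 0.0450). That call was lost under upper-quartile scaling (0.0791), with library totals only (0.380), and without any single library other than PP2Ac WT library 1 (0.0598 to 0.134). The count of 2 was then 1, except without PP2Ac KO library 3, where it stayed at 2. The carrier *Slc13a3*, at 1.16 ± 0.263 and 0.731 ± 0.157 CPM (SD, n = 3), missed the threshold at a log2 fold change of 0.65 (adjusted p = 0.0741) and passed it with the replicate block (adjusted p = 0.0232 from edgeR). *Sucnr1* and *Oxgr1*, the receptors for succinate and for itaconate and α-ketoglutarate, had 0 counts in every library, which allows up to 0.0909 CPM in the shallowest one.

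**Figure D5:**
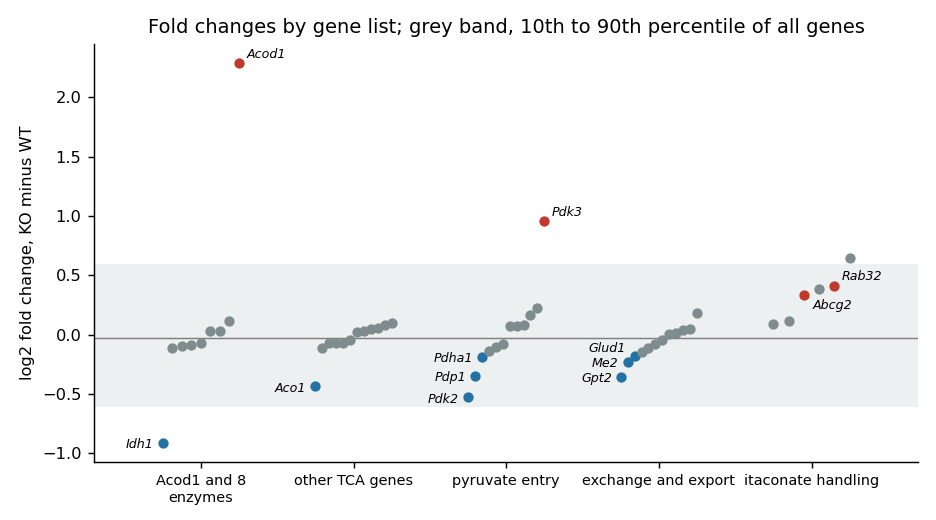
Log2 fold change of the tested genes of each list (points, sorted within a list; red higher and blue lower at FDR under 0.05, grey not called), with the median of all genes as a line and their 10th to 90th percentile, -0.60 to 0.58, as a band. *Acod1* at 2.29, *Pdk3* at 0.96 and *Idh1* at -0.91 are the called genes outside the band.

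The genes whose profile over the 6 libraries was most like that of *Acod1* were found by Euclidean distance between mean-centred log2 CPM. They were *Ccnd2* (distance 0.341), which encodes cyclin D2, *Serpina3f* (0.436), a serine protease inhibitor, *Il12rb1* (0.450), a receptor chain for IL-12 and IL-23, *Gm1966* (0.458) and *Cfb* (0.475), complement factor B. *Ccnd2* stood at 73.2 ± 12.5 CPM in PP2Ac KO against 14.999 ± 4.13 CPM in PP2Ac WT (SD, n = 3), and *Gm1966* at 28.8 ± 3.25 and 6.62 ± 1.70 CPM. *Serpina3f* stood at 11.8 ± 2.11 and 2.38 ± 0.596 CPM, and *Il12rb1* at 1.91 ± 0.106 and 0.374 ± 0.182 CPM. *Cfb* was close to the detection floor in PP2Ac WT, at 0.0794 ± 0.0380 CPM against 0.649 ± 0.185 CPM in PP2Ac KO. The likeness is a description over 6 libraries and rests mostly on the difference between genotypes.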

How the data were processed

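Poly(A) RNA of 3 PP2Ac KO and 3 PP2Ac WT libraries was sequenced from both ends after strand-specific preparation. The authors deposited whole-number counts of reads per gene symbol (mm10), without normalization. The submitters' processing notes name fastp 0.20.0, STAR 2.7.1a, HTSeq 0.11.2, kallisto 0.46.1, edgeR 3.34.0 and limma 3.48.3, with no role or order. The annotation release and strand setting are not given in the sources used here.

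Genotypes were compared with edgeR 4.0.16 under R 4.3.3 (filterByExpr with a minimum count of 10 and minimum total of 15, TMM, glmQLFit and glmQLFTest, genotype only, Benjamini-Hochberg over 13680 genes). A call is FDR under 0.05. CPM are counts relative to the TMM-scaled library, errors are SD of 3 libraries, and intervals are 95%. RPKM divide CPM by exon length in GENCODE M21, in which 98.4% of the symbols occur. The floor of 3 counts covers counting error only. Alternatives were RLE and upper-quartile factors, no filter, at least 10 counts in every library, a replicate block, each library left out, DESeq2 1.42.0 and voom in limma 3.58.1, and, chosen after seeing the data, library totals only.

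Both genotypes carry replicate numbers 1 to 3 in the labels. Libraries with the same number deviated together (r = 0.289, 0.148 and 0.337 across genes, which are not independent). Libraries with unlike numbers had r from -0.258 to -0.0312, and deviations within a genotype sum to 0, so these values depend on each other. The numbers were taken to pair the samples in the replicate block only, and the main fit leaves them out. This pairing was drawn from the same data, and nothing says what the numbers share. Genes named are the 9 members, 12 other TCA cycle genes, up to 3 called genes per direction of 3 related lists, and the 5 nearest profiles to *Acod1*. *Slc13a3*, *Pdk4*, *Sucnr1*, *Oxgr1* and *Csl* were named after their values were seen. Members and lists were chosen with earlier results of these data known. Some genes of these lists are not reported here.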

Additional observations from a re-analysis of the deposited data

How the results depend on the processing

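The log2 fold changes of *Acod1*, *Idh1* and *Aco1* kept their direction and their call under all 14 alternatives, from 2.08 to 2.52, from -1.13 to -0.84 and from -0.65 to -0.39. With the replicate block, 2 of the 9 genes were higher, since *Ogdh* passed the test (0.1139), and no other call among the 9 genes changed. With library totals only, where the median of all genes was -0.24 and the counts over all genes were 1503 higher and 6125 lower in place of 2470 and 2604, 7 of the 9 were lower. In that setting *Idh2* (-0.3305), *Idh3a* (-0.3085), *Fh1* (-0.3053) and *Mdh2* (-0.2844) passed the test, as did *Cs* (-0.1831) and *Suclg1* (-0.1829), which reversed, and *Ogdh* reversed without passing it (-0.1015). The lists then had 8 lower genes in the rest of the cycle, 6 in pyruvate entry and 9 in exchange, and *Dld* (-0.1846), *Suclg2* (-0.1306), *Sdha* (-0.1933), *Sdhb* (-0.1712), *Sdhc* (-0.1217) and *Sdhd* (-0.1596) reversed. These shifts follow from the scaling itself. Upper-quartile factors turned *Cs* to -0.03126, *Suclg1* to -0.03102, *Dld* to -0.03289, *Sdha* to -0.0414, *Sdhb* to -0.01928 and *Sdhd* to -0.007759, none of them called. Without single libraries, *Suclg1* ran from -0.01305 (without PP2Ac KO library 2) to 0.06138, with a reversal also without PP2Ac WT library 3 (-0.004212), and the *Mdh1* to *Mdh2* difference from -0.02019 to 0.0113, with reversals without PP2Ac KO library 1 and PP2Ac WT library 3 (0.006931). *Pdha1* lost its call with no filter on low counts (adjusted p = 0.0632 from edgeR) and in DESeq2 (0.0533), and *Me2* in DESeq2 (0.0511). With 3 libraries per group, an exact test of a single value cannot go below p = 0.1.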
